A study of Homo sapiens with 4 samples.

Results

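The 36 genes described here make up a response to shortage of amino acids and to stress that is governed by the transcription factor ATF4. They were taken by symbol from a list of ATF4 stress genes, enzymes of serine and folate metabolism, amino acid transporters and aminoacyl-tRNA synthetases, a rule that sets no threshold on any measured value. Each of the 36 symbols was found once among the 62069 genes counted, and 35 of them were among the 17172 genes with enough fragments to be tested. The remaining gene, NUPR1, a small stress-induced chromatin protein, had 0, 1, 0 and 3 fragments in the 4 libraries and is given no test. RNA came from KMS11, an established line of multiple myeloma cells with the t(4;14) translocation, grown in RPMI-1640 with fetal bovine serum. The control group is 2 libraries labelled control, and the other group is 2 libraries labelled shM2 in their titles and NSD2 knockdown in their genotype. The cells of all 4 libraries had been infected with lentivirus in the presence of polybrene at 10 µg/mL. RNA was taken at 96 h, which included 72 h in fresh medium after the virus was removed. The labels give neither the sequence nor the number of the hairpins. Nothing in them tells whether libraries within a group are separate cultures, and p-values therefore reflect the spread between libraries alone, which may be technical. NSD2, the targeted gene, a histone H3 lysine 36 methyltransferase, had 1121 CPM in control library 1 and 1471 in control library 2, against 919 in knockdown library 1 and 1156 in knockdown library 2 (CPM, counts scaled to a common library size, with TMM factors). The groups overlapped and the difference did not pass the test (log2 fold change -0.32, SE 0.15, edgeR adjusted p = 0.244). Between libraries of the same number the log2 ratio of knockdown over control was -0.29 (number 1) and -0.35 (number 2).

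In this response, kinases that sense uncharged tRNA, unfolded protein, double-stranded RNA or lack of heme phosphorylate the translation factor eIF2. Bulk protein synthesis then slows while ATF4 mRNA is translated more, so ATF4 is controlled largely after transcription. ATF4 pairs with C/EBP proteins on composite DNA elements and raises genes that make, import and charge amino acids, together with genes such as TRIB3 and PPP1R15A that turn the response down. Plasma cells and myeloma cells make large amounts of secreted protein and draw heavily on this machinery. The labelled cell type was visible in its markers: all 10 plasma cell markers in the table were expressed enough to be tested, with a summed level of 8335 to 9168 CPM, although CD38, a defining marker, was at 1.54 CPM or less in every library. CD38 and SLAMF7 fell in the knockdown libraries (log2 fold changes -2.82 and -1.09, edgeR adjusted p = 0.0284 and 0.000952), and the other 8 plasma cell markers did not pass the test. Summed T and NK cell markers were at 4.84 to 6.47 CPM (6 of 8 below 1 CPM in every library, CD3D at 0 in all), summed myeloid markers at 1.61 to 2.76 CPM (6 of 7 below 1 CPM, S100A8 at 0) and summed fibroblast markers at 0.931 to 1.27 CPM (5 of 6 below 1 CPM, LUM at 0).

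The DNA letters by which ATF4 and C/EBP bind together are shown first because they are what many of these genes share outside the RNA measurements. RefSeq promoter windows (GRCh38.p14, 250 bases before to 50 bases after an annotated start) matched 31 of the 36 genes, and NUPR1, PSPH, SHMT2, ALDH1L2 and SLC7A11 had no entry. The letters TGATGNAA, an ATF4-C/EBP element with 1 free base, were searched on both strands. At least 1 window held them in 12 of the 31 genes (38.7%), against 1217 of all 27305 genes (4.46%), and 12 of 49 windows held them (24.5%), against 3.62% of all 35116 windows. The 12 matches are printed below on the strand that reads TGATGNAA, with up to 8 bases on each side and the match in capitals.
ATF3: ggtcaggaTGATGGAAggctgtca
CEBPG: gcggcgtcTGATGCAAcctgccgg
CHAC1: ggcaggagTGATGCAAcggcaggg
ASNS: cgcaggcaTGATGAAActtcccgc
SLC3A2: ggagcTGATGTAAggagtcct
SLC7A1: cgcactgcTGATGAAAcctggcgc
SLC1A4: gctggagaTGATGCAAacgggagc
SLC1A5: gaagtggcTGATGCAAgctgtcca
AARS: aacttggcTGATGCAActgcgaga
GARS: tcggagcaTGATGAAAtcgccgcg
MARS: tccctcgcTGATGCAAccggaacc
NARS: acgctctcTGATGCAAcgccggaa
The free base was C in 7 of the 12, A in 3, G in 1 and T in 1. The match began upstream of the start in 9 genes, from 4 bases upstream in MARS to 209 in CHAC1, and downstream in 3 (SLC3A2, SLC7A1 and NARS). By role, the letters were in 4 of 6 synthetases and 4 of 6 transporters with an entry, in 2 of 5 transcription factors, in 1 of 7 feedback and stress genes and in 1 of 7 enzymes. The genes were listed as part of the ATF4 response, so their higher share than that of all genes is not independent evidence of binding. A match is a description of the window and was not tested as a binding site in these cells.

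The complete windows with the letters are given for ATF3, ASNS and SLC1A5. These are the genes that both held the letters and passed a test of the RNA below. The ATF3 window is chr1:212565157-212565456 on the plus strand, the ASNS window chr7:97872359-97872658 on the minus strand and the SLC1A5 window chr19:46784765-46785064 on the minus strand (GRCh38.p14, each 5′ to 3′ along the gene, TGATGNAA in capitals).
ATF3: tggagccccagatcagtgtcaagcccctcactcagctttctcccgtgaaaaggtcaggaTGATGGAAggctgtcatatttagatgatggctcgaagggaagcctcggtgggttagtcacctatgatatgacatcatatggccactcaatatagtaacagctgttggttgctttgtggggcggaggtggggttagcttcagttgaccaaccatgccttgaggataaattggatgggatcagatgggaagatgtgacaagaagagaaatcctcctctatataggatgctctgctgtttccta
ASNS: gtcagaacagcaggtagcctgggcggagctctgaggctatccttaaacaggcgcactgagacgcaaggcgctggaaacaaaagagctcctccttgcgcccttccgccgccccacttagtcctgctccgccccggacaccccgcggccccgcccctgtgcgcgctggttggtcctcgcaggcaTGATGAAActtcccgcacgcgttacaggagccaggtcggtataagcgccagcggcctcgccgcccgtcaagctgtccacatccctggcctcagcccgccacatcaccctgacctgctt
SLC1A5: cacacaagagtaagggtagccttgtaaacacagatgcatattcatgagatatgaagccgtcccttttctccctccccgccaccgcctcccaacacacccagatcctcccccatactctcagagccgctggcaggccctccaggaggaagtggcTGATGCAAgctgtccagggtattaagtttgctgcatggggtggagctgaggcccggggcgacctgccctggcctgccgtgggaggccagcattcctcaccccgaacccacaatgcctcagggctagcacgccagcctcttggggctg
In ATF3 the match begins 191 bases before the start of that window, in SLC1A5 97 bases and in ASNS 68 bases before it. The windows at the other annotated starts of these genes held no match. They are chr1:212614768-212615067 for ATF3, chr7:97872116-97872415 for ASNS, and chr19:46788545-46788844 and chr19:46787244-46787543 for SLC1A5. Of the 14 genes with a window that passed either test below, 3 held the letters, and of the 17 that passed neither, 9 did.

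Compared per exonic length, most of these genes were expressed at high level in these cells. Whether the response itself was active was not tested. In the control libraries, 30 of the 35 tested genes were above the 80th percentile of all genes tested, on FPKM (CPM divided by exonic length in kilobases), and their median was 37.1 FPKM. SLC7A5, the light chain of the large neutral amino acid carrier, had the highest level at 431 ± 57.3 FPKM (mean ± SD, n = 2), followed by ATF4 itself at 341 ± 44.1, the glutamine transporter SLC1A5 at 267 ± 62.0 and the mTORC1 inhibitor DDIT4 at 253 ± 28.0. Both control libraries had more SLC7A5 than either had ATF4, and more ATF4 than either had DDIT4. The range of SLC1A5 overlapped those of ATF4 and DDIT4, so its place between them does not stand beyond the spread. At the low end stood CTH, which makes cysteine from cystathionine, at 0.98 ± 0.156 FPKM, and the lipoprotein receptor VLDLR at 1.48 ± 0.372 FPKM. On the scale of the plot of levels per length, the 4 libraries of a gene lay close together and genes far apart.

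**Figure D1:**
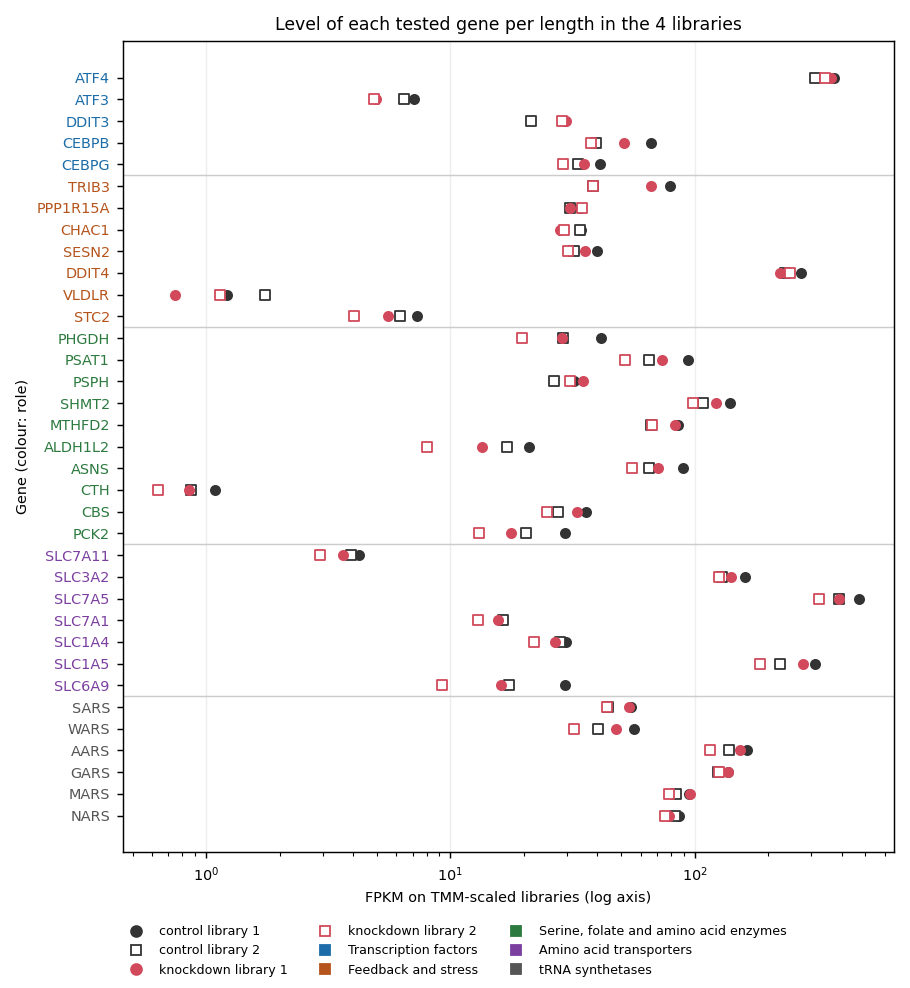
Level of each of the 35 tested genes per exonic length (FPKM on TMM-scaled libraries, log axis) in the 2 control libraries (black) and the 2 knockdown libraries (red), with filled circles for libraries numbered 1 and open squares for libraries numbered 2. Gene names are coloured by role. SLC7A5, ATF4, SLC1A5 and DDIT4 lie at the right and CTH and VLDLR at the left, near 1 FPKM.

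The first comparison asked how these genes differed in the libraries labelled NSD2 knockdown. Of the 35 genes, 2 fell past the threshold of an edgeR adjusted p of 0.05 (ATF3 and ALDH1L2) and 0 rose. Over all genes tested, 4.19% fell and 1.74% rose. Without regard to the test, 30 of the 35 log2 fold changes were below 0, and their median was -0.21 against -0.0016 over all genes. In 13 of the 35 genes both knockdown libraries were below both control libraries, where 26.2% of all genes tested showed this, and in 0 genes were both above, where 27.0% of all genes did. At an unadjusted p below 0.05 there were 9 genes, all lower in the knockdown libraries, where 13.1% of all genes tested were lower at that p. In 26 of the 35 genes, knockdown was below control between the libraries numbered 1 and again between those numbered 2. The number that fell and the signs depended on single libraries. A fit with 1 library left out compares 1 library with 2, and the library numbers are then uneven between the groups. What this unevenness adds to the values was not tested. Log2 fold changes below 0 numbered 19 or 34 when control library 1 or 2 was left out, and 31 or 24 when knockdown library 1 or 2 was. The median log2 fold change moved with them, from -0.03 without control library 1 to -0.37 without knockdown library 1. Over all genes the median stayed between -0.013 and 0.005 in these fits. In bulk RNA, fewer cells with a transcript and less of it in each cell cannot be told apart.

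**Figure D2:**
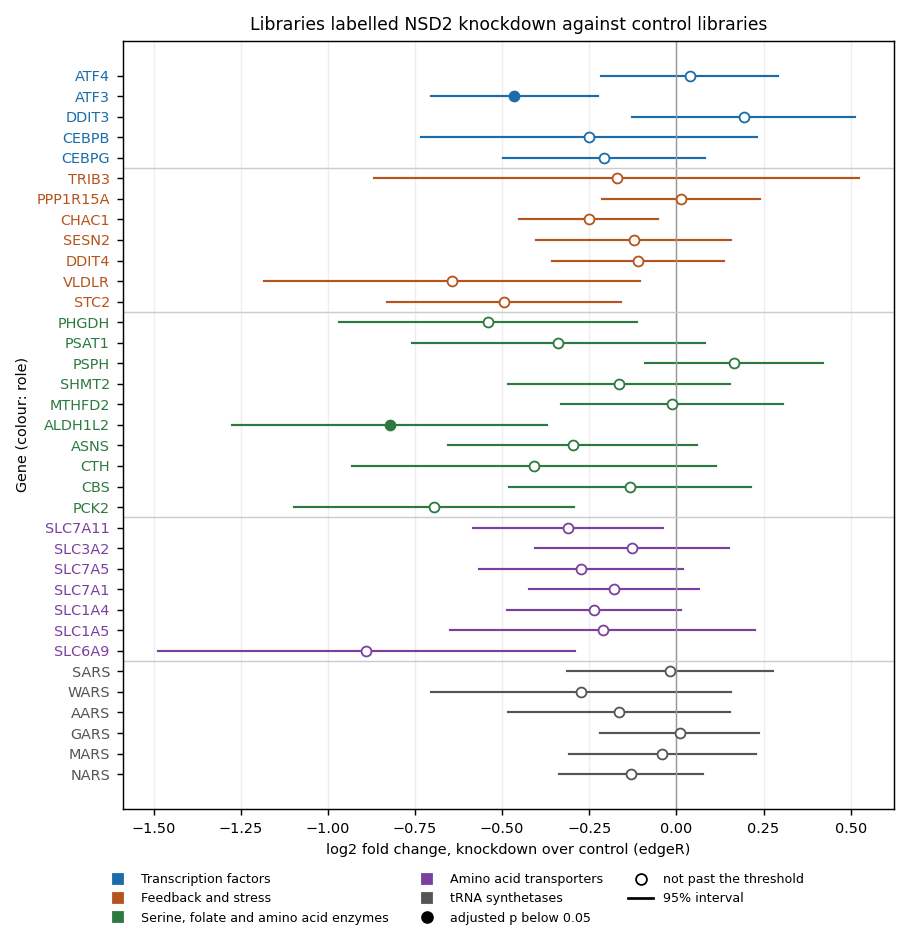
Log2 fold change of each of the 35 tested genes in the knockdown libraries over the control libraries (edgeR, n = 2 and 2), with its 95% interval. Filled points passed an adjusted p of 0.05. ATF3 (-0.46) and ALDH1L2 (-0.82) are filled, SLC6A9 (-0.89) and PCK2 (-0.69) also lie far to the left but are open, and ATF4 (0.04) sits near 0.

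Below, the 4 values of a gene are those of controls 1 and 2 followed by those of knockdown libraries 1 and 2. Among the transcription factors, ATF4 had 936, 779, 907 and 855 CPM. Its groups overlapped, and the log2 fold change was 0.04 (95% interval -0.22 to 0.29, edgeR adjusted p = 0.882). ATF3, a stress-induced repressor that ATF4 activates, is at chr1:212738676-212794119 in the coordinates of the deposited table (GRCh37) and had 28.5, 25.9, 19.9 and 19.5 CPM. Both knockdown libraries were below both control libraries, and ATF3 fell by 0.46 on the log2 scale (SE 0.107, edgeR adjusted p = 0.0337), a 1.38-fold lower mean. ATF3 no longer passed when control library 1, knockdown library 1 or knockdown library 2 was left out. Its log2 fold changes in these fits, of 1 library against 2, were -0.39, -0.47 and -0.46. DDIT3, which encodes CHOP, the pro-apoptotic partner of C/EBP proteins, had 37.4, 27.0, 37.5 and 36.2 CPM, a difference of 0.19 that did not pass the test (adjusted p = 0.471). DDIT3 lies on the strand opposite MARS, 355 bp or 28% of its exons overlap exons of MARS, and the counting ignored strand, so fragments of the abundant MARS cannot be told apart from it there. CEBPB, a dimer partner of ATF4, had 121, 72.5, 93.9 and 69.1 CPM and CEBPG, its partner without an activation domain, had 181, 147, 156 and 128 CPM. Their log2 fold changes of -0.25 and -0.21 did not pass the test, and in both genes the groups overlapped.

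Of the 7 feedback and stress genes 0 passed the test, 6 had negative log2 fold changes, and the median was -0.17. TRIB3, a pseudokinase that binds ATF4 and restrains it, had 234, 113, 196 and 113 CPM. Its libraries separated by number and not by group, and the log2 fold change was -0.17 with a 95% interval of -0.87 to 0.52 (edgeR adjusted p = 0.792). PPP1R15A, the phosphatase subunit that removes phosphate from eIF2, had 105, 95.4, 95.6 and 107 CPM, and its log2 fold change was 0.01. CHAC1, which degrades glutathione, had 70.3, 69.9, 57.8 and 59.9 CPM. The 2 libraries of each group were nearly equal and the groups did not overlap, yet the difference of -0.25 missed the threshold (SE 0.089, edgeR adjusted p = 0.135). STC2, a secreted stanniocalcin, had 44.8, 38.1, 34.0 and 24.8 CPM with no overlap between the groups (log2 fold change -0.50, SE 0.15, edgeR adjusted p = 0.0872). DESeq2 called STC2 (adjusted p = 0.036), as did the fits without control library 2 (log2 fold change -0.61) and without knockdown library 1 (-0.73), while it was at -0.29 without knockdown library 2. VLDLR had 4.57, 6.55, 2.81 and 4.27 CPM, also with no overlap (log2 fold change -0.64, SE 0.241, adjusted p = 0.154). With 1 library left out, the log2 fold change of VLDLR ran from -0.99 (without knockdown library 2) to -0.37, and was -0.88 without control library 1. SESN2, a leucine sensor upstream of mTORC1, and DDIT4 overlapped between groups, with log2 fold changes of -0.12 and -0.11. SESN2 had 138, 111, 123 and 105 CPM and DDIT4 562, 481, 460.4 and 506 CPM, both highest in control library 1.

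The 10 enzymes had a median log2 fold change of -0.32, the lowest of the 5 roles, with 9 negative values and 1 call. ALDH1L2, the mitochondrial dehydrogenase that oxidises formyl-tetrahydrofolate, is at chr12:105413568-105478355 (GRCh37) and had 178, 144, 114 and 68.4 CPM. Each knockdown library was below each control library, and ALDH1L2 fell by 0.82 on the log2 scale (SE 0.202, edgeR adjusted p = 0.0431), a 1.77-fold lower mean. DESeq2 did not call it (adjusted p = 0.223), nor did the fits with library-size scaling (0.0667), a filter of 1 CPM (0.0648), GC and length terms (0.093) or robust empirical Bayes (0.0988). Knockdown library 2 was the lowest of the 4, and the log2 fold change was -0.51 without it.

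PCK2, the mitochondrial enzyme that makes phosphoenolpyruvate, at chr14:24563262-24579807, had 123, 85.1, 73.8 and 54.9 CPM. The groups did not overlap, and the log2 fold change of -0.69 (SE 0.179) stood just outside the threshold (edgeR adjusted p = 0.0525), while DESeq2 placed it inside (adjusted p = 0.00218). PCK2 also passed with upper-quartile scaling (edgeR adjusted p = 0.0488) and with no filter. It did not pass with RLE or library-size scaling, a filter of 1 CPM, limma-voom, GC and length terms or robust empirical Bayes. With 1 library left out, its log2 fold changes ran from -0.40 without control library 1 to -0.94 without control library 2. The serine pathway starts with PHGDH, which had 232, 163, 161 and 111 CPM. Control library 2 and knockdown library 1 were nearly equal, and the log2 fold change of -0.54 did not pass the test (SE 0.191, edgeR adjusted p = 0.133). PHGDH passed when control library 2 (-0.78, adjusted p = 0.000585) or knockdown library 1 (-0.83, 1.31e-05) was left out, and was at -0.26 without control library 1. PSAT1, the next enzyme, had 206, 142, 161 and 114 CPM with overlapping groups (log2 fold change -0.34, adjusted p = 0.328). PSPH, which completes serine, went the other way, with 88.5, 73.5, 96.4 and 85.3 CPM and a log2 fold change of 0.17 (adjusted p = 0.438), and 10.4% as many fragments were counted on its pseudogene PSPHP1 as on PSPH itself. SHMT2 and MTHFD2, which pass the serine carbon to mitochondrial folate, had log2 fold changes of -0.17 and -0.01, both with overlapping groups. ASNS, asparagine synthetase, had 398, 290.2, 315 and 246 CPM (log2 fold change -0.30, adjusted p = 0.309). For CBS and CTH, which carry sulfur from homocysteine to cysteine, the log2 fold changes were -0.13 and -0.41, and CTH had 2.63, 2.10, 2.05 and 1.53 CPM. The 95% interval of CTH ran from -0.93 to 0.11.

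All 7 transporters had negative log2 fold changes with a median of -0.24, and 0 passed the test. SLC6A9, the glycine transporter GLYT1, at chr1:44457172-44497139, had the widest range of the 35 tested genes on the log2 scale, with 152, 89.4, 83.0 and 47.6 CPM. Control library 1 was the highest and knockdown library 2 the lowest, and the groups did not overlap. Its log2 fold change of -0.89 was the most negative of the 35, and did not pass the test (SE 0.268, 95% interval -1.49 to -0.29, edgeR adjusted p = 0.0869). The 2 libraries of a group differed by similar amounts, log2 ratios of -0.77 within control and -0.80 within knockdown. The log2 fold change of SLC6A9 was -1.23 without control library 2, -1.34 without knockdown library 1, -0.55 without knockdown library 2 and -0.45 without control library 1. Between libraries of the same number, the log2 ratio of knockdown over control was -0.88 (number 1) and -0.91 (number 2). Without control library 1, and again without knockdown library 2, VLDLR was more negative than SLC6A9. The heavy chain SLC3A2 and its partners SLC7A5 and SLC7A11, the cystine exchanger, had log2 fold changes of -0.13, -0.27 and -0.31. SLC7A11 had 40.9, 37.7, 35.2 and 28.2 CPM without overlap between groups (adjusted p = 0.171). SLC7A5 had 2238, 1854, 1856 and 1528 CPM, and control library 2 and knockdown library 1 were nearly equal. The neutral amino acid exchangers SLC1A4 and SLC1A5 and the arginine and lysine carrier SLC7A1 had log2 fold changes of -0.24, -0.21 and -0.18.

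The 6 tRNA synthetases, which attach amino acids to their tRNAs, were the role nearest to 0, with a median log2 fold change of -0.09 and 0 calls. GARS (glycine) had 569, 516, 571 and 521 CPM and MARS (methionine) 666, 589.6, 669.8 and 551 CPM. In GARS the libraries with the same number were nearly equal across groups. WARS (tryptophan) had the most negative value, -0.27, with 358, 256, 304 and 204 CPM and overlapping groups (edgeR adjusted p = 0.442). SARS (serine), AARS (alanine) and NARS (asparagine) had log2 fold changes of -0.02, -0.16 and -0.13. NARS was the only one of the 6 whose groups did not overlap, at 351, 338, 319.6 and 310.3 CPM.

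The second comparison set the libraries numbered 2 against those numbered 1, with the group kept in the model. The labels do not say what the numbers stand for, and this is not a treatment. It was chosen because earlier results of these data had shown the ATF4 genes lower in the libraries numbered 2. The counts by number below therefore describe that difference and are not independent evidence for it. In control library 1, 28 of the 35 genes had their highest value, and in knockdown library 2, 25 had their lowest. Summed over the 36 genes, the level was 12539 CPM in control library 1, 10097 in control library 2, 11011 in knockdown library 1 and 9070 in knockdown library 2, so each library numbered 2 was below each numbered 1. Knockdown library 2 also had the largest depth (55059566 fragments, the others 46728940 to 50417758) and the largest share of mitochondrial fragments (6.81%, the others 5.82% to 5.89%). Whether these have a part in the difference was not tested.

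**Figure D3:**
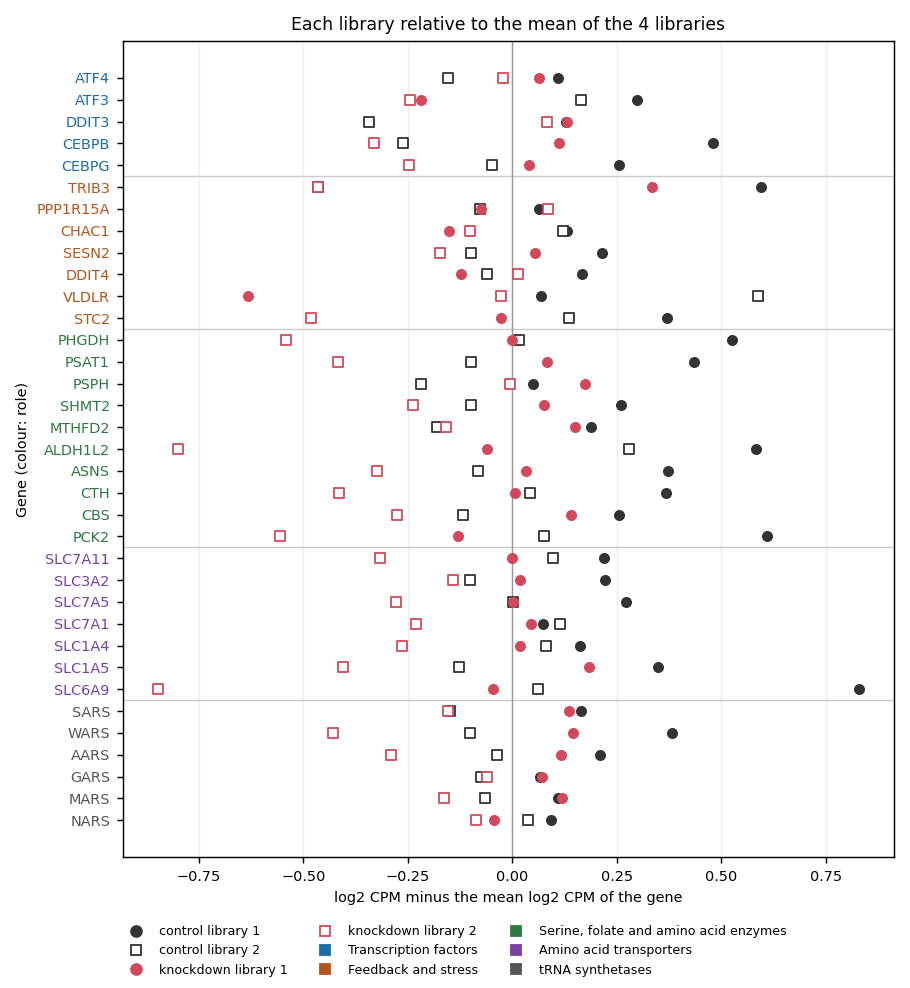
Log2 CPM of each of the 35 tested genes in each library minus the mean log2 CPM of the 4 libraries. Black marks are control and red marks knockdown libraries, circles are numbered 1 and squares 2. Control library 1 (filled black) is the rightmost mark in 28 genes and knockdown library 2 (open red) the leftmost in 25.

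In the libraries numbered 2, 14 of the 35 genes were lower and 1 was higher past an edgeR adjusted p of 0.05. Over all genes tested, 1.56% were lower and 1.98% higher. The median log2 ratio of number 2 over number 1 was -0.30 against 0.004 over all genes, and 32 of 35 ratios were below 0. Both libraries numbered 2 were below both numbered 1 in 20 of the 35 genes, where 15.3% of all genes tested showed this, and above in 0, where 14.4% of all genes were. The ratio was below 0 within the control libraries and again within the knockdown libraries in 30 of the 35 genes. The model had 1 residual degree of freedom, and without the group term the ratios were nearly the same (median -0.30) but 0 of the 35 genes, and 0 of all genes, passed. With the group kept, 11 of the 14 genes held their call in all 8 other settings tried.

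**Figure D4:**
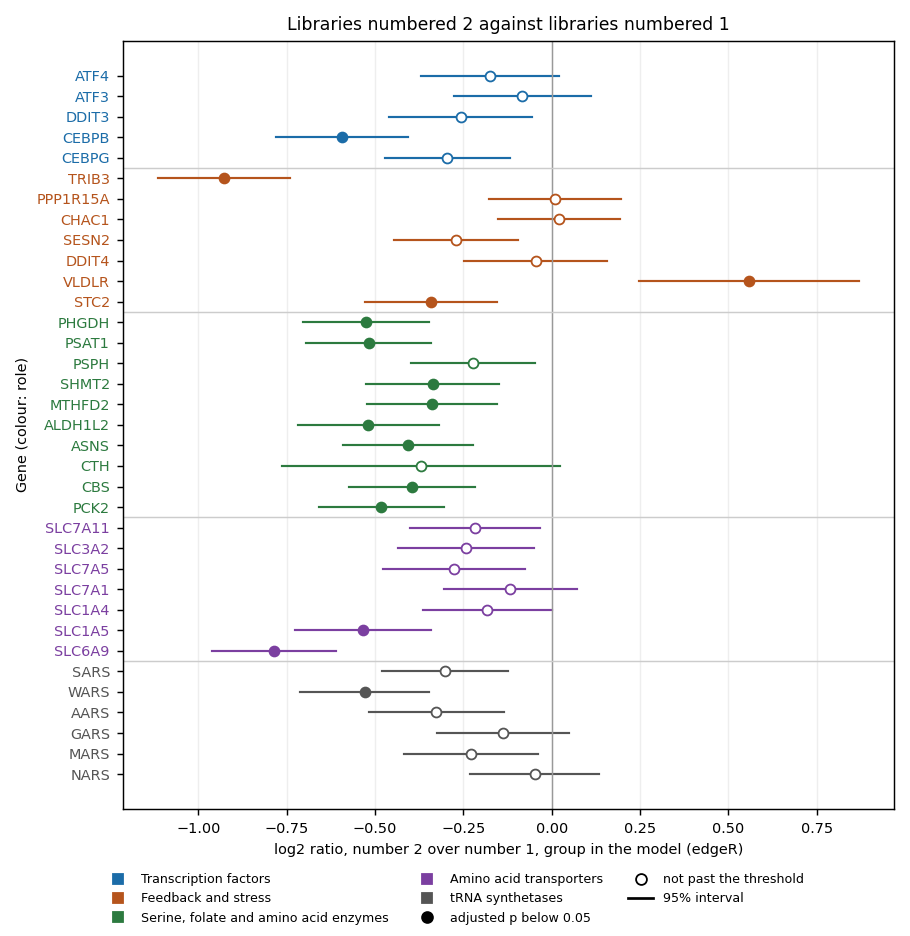
Log2 ratio of each of the 35 tested genes in libraries numbered 2 over those numbered 1 (edgeR with the group in the model, 2 libraries each), with its 95% interval. Filled points passed an adjusted p of 0.05. TRIB3 (-0.93) and SLC6A9 (-0.79) lie farthest left, and VLDLR (0.56) is the single filled point to the right of 0.

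TRIB3 had the largest such difference, a log2 ratio of -0.93 (SE 0.091, edgeR adjusted p = 1.6e-06). The log2 ratio was -1.06 within the control libraries and -0.80 within the knockdown libraries. Among the transcription factors CEBPB was lower (-0.59, adjusted p = 0.000336). ATF4 had both libraries numbered 2 below both numbered 1, with a log2 ratio of -0.17 that did not pass (adjusted p = 0.392), and ATF3 was near 0 (-0.08). STC2 was lower (-0.34, adjusted p = 0.035) and VLDLR higher (0.56, adjusted p = 0.0401). VLDLR had at most 6.55 CPM, and DESeq2 called neither it (adjusted p = 0.469) nor STC2 (0.26). PPP1R15A, CHAC1 and DDIT4 were near 0 (0.01, 0.02 and -0.05). NSD2, the targeted gene, was higher in the libraries numbered 2 (log2 ratio 0.36, edgeR adjusted p = 0.0335).

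Most of the enzymes, 8 of 10, were lower in the libraries numbered 2. They were PHGDH (-0.53), ALDH1L2 (-0.52), PSAT1 (-0.52), PCK2 (-0.48), ASNS (-0.41), CBS (-0.39), MTHFD2 (-0.34) and SHMT2 (-0.34), with edgeR adjusted p-values from 0.000769 for PHGDH to 0.0397 for SHMT2. SHMT2 had 672, 523, 591 and 475 CPM and MTHFD2 415, 321, 404 and 326 CPM, so that in both genes the libraries sorted by number. CBS sorted the same way, with 245, 189, 226 and 169.5 CPM. PSPH and CTH had log2 ratios of -0.22 and -0.37 and did not pass. The ratios for PHGDH were alike in both groups, -0.51 within control and -0.54 within knockdown. ALDH1L2 differed more between groups, -0.30 within control and -0.74 within knockdown, a contrast that was not tested.

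Of the transporters, SLC6A9 (-0.79, edgeR adjusted p = 7.93e-06) and SLC1A5 (-0.53, adjusted p = 0.00151) were lower. SLC1A5 had 1037, 744, 924 and 614 CPM, so that both libraries numbered 2 were below both numbered 1. The other transporters had log2 ratios from -0.28 (SLC7A5) to -0.12 (SLC7A1) and did not pass. SLC3A2 had 845, 675, 734 and 657 CPM and sorted by number. SLC1A4 had 206, 194, 186 and 153 CPM and SLC7A1 123, 126, 120.4 and 99.4 CPM, and in both genes knockdown library 2 stood below the other 3, which lay close together. Among the synthetases WARS was lower (-0.53, adjusted p = 0.000987), while AARS (-0.33, adjusted p = 0.0501) and SARS (-0.30, adjusted p = 0.0516) stood just outside the threshold. AARS had 719, 606, 675 and 509 CPM and SARS 210.0, 169, 206 and 168 CPM, and in both genes each library numbered 2 was below each numbered 1. GARS and MARS sorted the same way with log2 ratios of -0.14 and -0.23 that did not pass. NARS, whose groups had not overlapped, had a log2 ratio of -0.05 by number.

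Other genes of the pathway were examined in 7 lists with 106 tested genes, none of them among the 36. In the knockdown comparison 1 rose and 2 fell, shares no higher than the 1.74% and 4.19% of all genes tested, and the median log2 fold change of the 106 was 0.01. GADD45A, a growth arrest gene induced by ATF4 and by DNA damage, rose from 25.8 and 26.7 CPM in control to 36.5 and 47.7 CPM in knockdown (log2 fold change 0.68, SE 0.131, edgeR adjusted p = 0.0154). SLC38A1, a glutamine transporter, fell by 0.81 on the log2 scale, from 123 and 167 CPM to 89.9 and 76.0 CPM (SE 0.145, adjusted p = 0.0118). SLC6A15, a carrier of branched-chain amino acids, fell by 0.39, from 36.04 and 35.2 CPM to 27.4 and 27.1 CPM (SE 0.097, adjusted p = 0.047). In all 3 genes the groups did not overlap. How many of the 106 genes passed also depended on single libraries. The 18 other ATF4 targets had a median of -0.03, with 9 values below 0 and 9 above. The 15 other amino acid transporters had a median of -0.26, while the 14 other cytosolic synthetases (0.03), the 17 mitochondrial synthetases (0.10), the 22 other folate and serine genes (-0.006), the 14 genes of eIF2 and its kinases (0.07) and the 7 glutathione synthesis genes (0.05) had medians near 0, with 0 calls in each of these 5 lists.

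**Figure D5:**
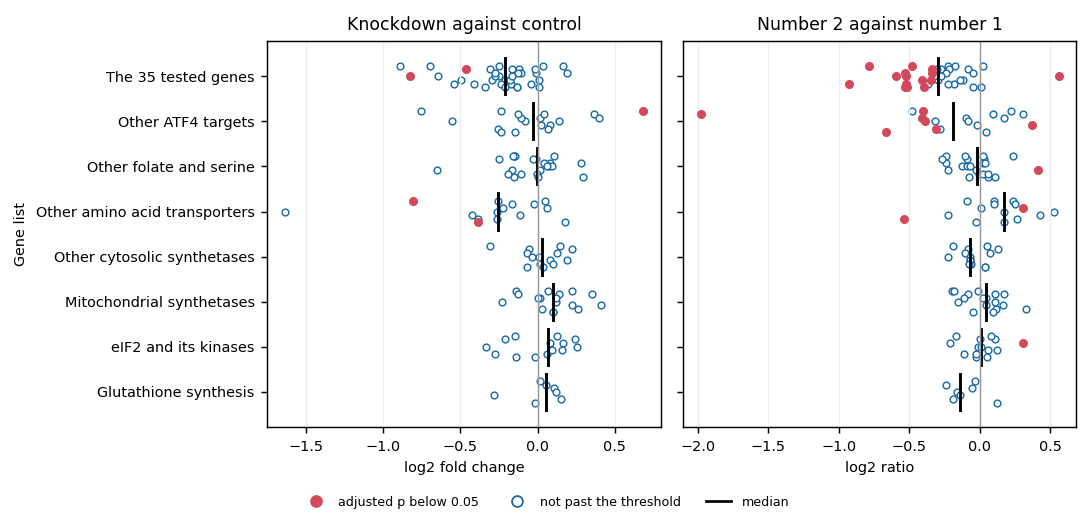
Log2 fold change in knockdown over control (left) and log2 ratio of number 2 over number 1 (right) for the 35 tested genes and the 7 other lists, 1 point per tested gene, with the median as a bar. Red points passed an adjusted p of 0.05. In the right panel 14 red points of the 35 genes and 6 of the other ATF4 targets lie left of 0.

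By library number, 4 of the 106 genes were higher and 7 lower, where 1.98% and 1.56% of all genes tested were. The other ATF4 targets held 6 of those 7, among 18 tested. EIF4EBP1, a repressor of cap-dependent translation, had 104, 60.3, 88.3 and 60.6 CPM (log2 ratio -0.67, edgeR adjusted p = 8.4e-05). GDF15, a secreted stress cytokine, was lower at no more than 1.24 CPM (log2 ratio -1.98, adjusted p = 0.000515), and GPT2, which makes alanine, was lower by a log2 ratio of -0.41 (adjusted p = 0.0081). NDRG1, a stress-responsive gene, was the single one of the 18 that was higher (0.37, adjusted p = 0.0177). Among the other lists, SLC43A1, an importer of large neutral amino acids, was lower (-0.54, adjusted p = 0.00548), and EIF2AK3, the kinase PERK that senses unfolded protein, was higher (0.31, adjusted p = 0.0435). None of the 14 other cytosolic and 17 mitochondrial synthetases passed.

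In the authors' deposited table, 35 of the 36 genes had an adjusted p and 0 of them were below 0.05. ALDH1L2 had the lowest in the authors' deposited table, with a log2 fold change of -0.80, a standard error of 0.265 and an adjusted p of 0.102. Which libraries entered that model is not given in the sources used here. Exons of 9 of the 36 genes overlap those of another tested gene on the opposite strand. Besides DDIT3 these include MTHFD2 (27.2% of its exons, with SLC4A5, 240 fragments against 73339 over the 4 libraries), MARS (7.38% with ARHGAP9 and 5.05% with DDIT3), SLC7A11 (8.97%, with its antisense gene) and SLC6A9 (7.83%, with CCDC24, 627 fragments against 18513).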

How the data were processed

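For each library the deposited values are unnormalized counts of fragments on Ensembl genes. Per the submitters' processing notes, the authors used Trim Galore 0.3.7, STAR 2.5.3, Picard and featureCounts of Subread 1.4.6 on GRCh37. Strand was ignored in counting, per the file headers. The authors also deposited a DESeq2 table with a log2 fold change, its standard error and an adjusted p-value per gene, from which symbols and exonic lengths were taken. That table also has 4 count columns, which no step used. The 1 blank line in each count file was skipped.

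Both comparisons were fitted on all genes with edgeR 4.0.16 (R 4.3.3) and its quasi-likelihood test, with TMM scaling, the default low-count filter of edgeR and Benjamini-Hochberg adjustment over 17172 genes. The first model held the group alone, the second the group and the library number, with 2 and 1 residual degrees of freedom. Counts of genes past the threshold in the 2 comparisons are therefore not like for like. Library depth was 46728940 to 55059566 fragments, and the biological coefficient of variation was 9.81%. CPM and FPKM were computed on TMM-scaled libraries. Alternatives were DESeq2 1.42.0, limma 3.58.1, other scalings and filters, offsets for GC content and length, and each library left out in turn. The script was tested on simulated data.

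The genes, the lists and the comparison by number were chosen with earlier results of these data known. The text accounts for all 36 genes by role, and in each other list names up to 3 genes that rose and 3 that fell, by smallest adjusted p. Windows printed in full are those of genes past a threshold that hold the searched letters. One result is not reported here.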

Additional observations from a re-analysis of the deposited data

How the results depend on the processing

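Scaling by RLE left every member count as it was (0 rose and 2 fell with knockdown, 14 lower and 1 higher by number). With knockdown, 3 members fell under upper-quartile scaling and DESeq2, 2 with limma-voom and with GC and length terms, 1 under library-size scaling, a filter of 1 CPM in 2 libraries, and robust empirical Bayes, and 8 with no filter. Of all 17172 genes 719 fell in the main fit. In the order of the settings just named, 741, 734, 716, 618, 687, 566 (of 13426), 699 and 1490 (of 31645) did. Over all genes 299 rose, 358 with DESeq2 and 658 with no filter. With 1 library left out, the number that passed changed, and the median log2 fold change of the members ran from -0.37 to -0.03. Such a fit compares 1 library with 2 and is uneven for library number. Of the other pathway genes, 2 rose with no filter and with DESeq2 and 0 to 2 without a library, against 1, and 7 fell with no filter, 1 with limma-voom and with GC and length terms, and 1 to 5 without a library, against 2. By number, 11 members were lower under upper-quartile scaling, 13 under library-size scaling and DESeq2, 17 with limma-voom, 18 with either other filter and 21 with GC and length terms. Of all 17172 genes 268 were lower in the main fit. There were 191 under upper-quartile scaling, 201 under library-size scaling, 80 with DESeq2, 300 with limma-voom and 468 with GC and length terms. With no filter 388 of 31645 were lower, and with the 1 CPM filter 394 of 13426. The 1 higher, VLDLR, became 0 under library-size scaling and DESeq2, and with no group term 0 were lower and 0 higher. A left-out library leaves the comparison by number no residual degrees of freedom, so the ratios within each group stand for it.

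With the library number as a replicate block, 13 members fell with knockdown and 0 rose, beside 1992 of all genes that fell and 1327 that rose, and 12 other pathway genes fell and 6 rose. With the replicate block and the GC and length terms together, 19 members and 19 other pathway genes fell and 11 of the latter rose, beside 2336 of all genes that fell and 1868 that rose. The deviations of same-numbered libraries correlated at 0.236 over genes. The labels do not say that the numbers pair the libraries, and there are only 2 of them. The knockdown result reported is therefore the one without the block. The model with the block is the same model that gave the comparison by number. The 2 members that fell with knockdown and the 14 lower by number thus come from different models.

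Some log2 fold changes that did not pass the test changed sign, and none of the values with the changed sign passed. With GC and length terms ATF4 came to -0.011 and -0.00873 with the block added, PPP1R15A to -0.039 and -0.041, GARS to -0.00741 and -0.00755, and MARS to 0.00544 and 0.0051, and by number DDIT4 came to 0.021. Library-size scaling gave -0.00628 for PPP1R15A and -0.00879 for GARS, for which upper-quartile scaling gave -0.00389 and the 1 CPM filter -0.00135. Leaving out single libraries gave ranges across 0, some with an end of the original sign that passed, for ATF4 (-0.094 to 0.18), DDIT3 (-0.029 to 0.45), CEBPB (-0.58 to 0.17), TRIB3 (-0.62 to 0.46), PPP1R15A (-0.076 to 0.096), SESN2 (-0.28 to 0.047), DDIT4 (-0.22 to 0.011), SHMT2 (-0.34 to 0.030), MTHFD2 (-0.19 to 0.19), CBS (-0.35 to 0.068), SLC3A2 (-0.29 to 0.046), SLC1A5 (-0.53 to 0.051), SARS (-0.17 to 0.15), AARS (-0.38 to 0.019), GARS (-0.066 to 0.085) and MARS (-0.18 to 0.087). The cause was not tested. Depth limits CTH and VLDLR most, the tested members with the fewest fragments.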
